A study of Mus musculus with 10 samples.

Results

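The change of H3K27me3 around transcription start sites (TSS) of the mouse retina during the first postnatal week was followed by setting the library of postnatal day 7 (PN7) against that of postnatal day 1 (PN1). All 20038 gene symbols of the deposited table, the whole of the series, were members. A symbol listed more than once was read from the entry whose 8 values added up to the most. H3K27me3 was measured by ChIP-Seq, with 1 library at each of E17 (E17.5 in the protocol), PN1, PN7 and PN15, and H3K4me2 was measured at the same 4 stages. Of the 10 samples of the series, 2 had no column in the table and were not used here. The values are normalized occupancy, namely the reads within 2.5 kb of a TSS scaled by the authors to the mapped reads of the library.

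All groups were untreated retinas, and at least 20 retinas were combined for each stage, so a value is an average over all retinal cell types. Fewer cells that carry the mark and less mark per cell cannot be told apart. The strain label of every sample names the Pde6b (rd1/rd1) mutant, whereas the methods of the study describe wild type C57BL/6j mice for these stages, so the genotype rests on the methods. H3K4me2 was read over lists of marker genes: its median from E17 to PN15 was 107, 74.5, 115.5 and 60 over 22 retinal progenitor regulators, and 14, 13, 13 and 78 over 43 photoreceptor genes. Its median stayed at 18.5 or below at every stage for the lists of retinal pigment epithelium, crystallin, endothelial, and microglia and blood genes. The photoreceptor median also lay below 18.5 up to PN7. Cytosolic ribosomal protein genes had 65, 45, 31 and 72, so a high median is not particular to retinal genes.

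H3K27me3 is placed by Polycomb repressive complex 2, whose enzyme is Ezh1 or Ezh2, and is removed by the demethylases Kdm6a and Kdm6b. It covers CpG-rich promoters of silent developmental regulators, often together with H3K4 methylation. In the postnatal mouse retina, progenitor cells leave the cell cycle and give rise to rods, bipolar cells and Mueller glia, so genes of the progenitor state and of the mature cell types are switched in opposite directions.

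The spacing of the rounded values gave the worth of 1 read. A normalized occupancy of 1 stood for 1.22 reads in the PN1 library, 3.20 reads in the PN7 library and 1.15 reads in the PN15 library, while no spacing could be read from the E17 library. The limit of 3 reads lay at 2.46 at PN1 and 0.938 at PN7. Intervals below are exact Poisson 95% intervals, which cover counting error only. With 1 library a side there was no replicate error and no p-value, and the stage cannot be told apart from whatever else differed between the libraries, such as the efficiency of the precipitation. The values of PN7 summed to 650850 over all symbols and those of PN1 to 816198, a ratio of 0.797. The olfactory receptor genes, which the retina does not use, had a median of 7 at PN1 and 6 at PN7.

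The 250 bases before the annotated start of 4 genes are given as examples. These starts are from GENCODE vM1, whereas the values were summed around RefSeq starts, so the measured start may differ. Hoxa10 had the highest mean level, Neurod1 fell and Pax6 rose by PN7, and Olfr63 is an olfactory receptor gene with 59 at PN1 and 89 at PN7, above the median of its family. The sequences are from mm9, 5′ to 3′ on the strand of the gene, with each CG in capitals. They lie at chr6:52190854-52191103 (minus strand), chr2:79296909-79297158 (minus strand), chr2:105508803-105509052 (plus strand) and chr17:33405417-33405666 (plus strand).
Hoxa10: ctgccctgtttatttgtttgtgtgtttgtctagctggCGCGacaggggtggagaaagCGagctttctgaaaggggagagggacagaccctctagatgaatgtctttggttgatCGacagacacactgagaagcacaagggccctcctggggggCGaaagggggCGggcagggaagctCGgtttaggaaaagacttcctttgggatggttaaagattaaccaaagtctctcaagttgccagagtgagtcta
Neurod1: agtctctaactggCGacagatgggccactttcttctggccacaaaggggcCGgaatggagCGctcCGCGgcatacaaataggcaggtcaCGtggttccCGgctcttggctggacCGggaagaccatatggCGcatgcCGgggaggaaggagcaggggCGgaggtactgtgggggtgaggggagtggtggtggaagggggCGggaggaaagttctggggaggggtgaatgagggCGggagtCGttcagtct
Pax6: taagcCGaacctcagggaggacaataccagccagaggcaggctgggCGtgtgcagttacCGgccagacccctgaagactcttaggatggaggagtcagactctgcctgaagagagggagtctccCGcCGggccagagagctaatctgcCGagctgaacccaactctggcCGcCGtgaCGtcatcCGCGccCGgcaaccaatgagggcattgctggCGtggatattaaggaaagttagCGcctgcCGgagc
Olfr63: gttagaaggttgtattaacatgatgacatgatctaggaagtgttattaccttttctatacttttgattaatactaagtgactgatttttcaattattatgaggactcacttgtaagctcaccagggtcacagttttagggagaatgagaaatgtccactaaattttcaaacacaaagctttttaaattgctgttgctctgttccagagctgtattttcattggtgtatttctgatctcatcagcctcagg
CG, which reads the same on both strands, occurred 7 times before Hoxa10, 14 times before Neurod1, 15 times before Pax6 and not at all before Olfr63. At least 1 CG was found in 93.3% of the 19482 promoter stretches of this length, and the median was 10.

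From PN1 to PN7 H3K27me3 fell most where it was highest. For the 891 symbols with a mean of 200 or more over both stages, the median log2 change was -0.49, with quartiles of -0.67 and -0.32, and 849 of them (95.3%) were lower at PN7. Their median occupancy was 390 at PN1 and 277 at PN7. Below that level the loss was smaller. The median log2 change was -0.28 for the 789 symbols between 100 and 200, -0.16 for the 1135 between 50 and 100, and -0.03 for the 2609 between 20 and 50. It was -0.09 for the 4361 symbols between 10 and 20 and -0.17 for the 10253 below 10. The median over all symbols was -0.16.

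**Figure D1:**
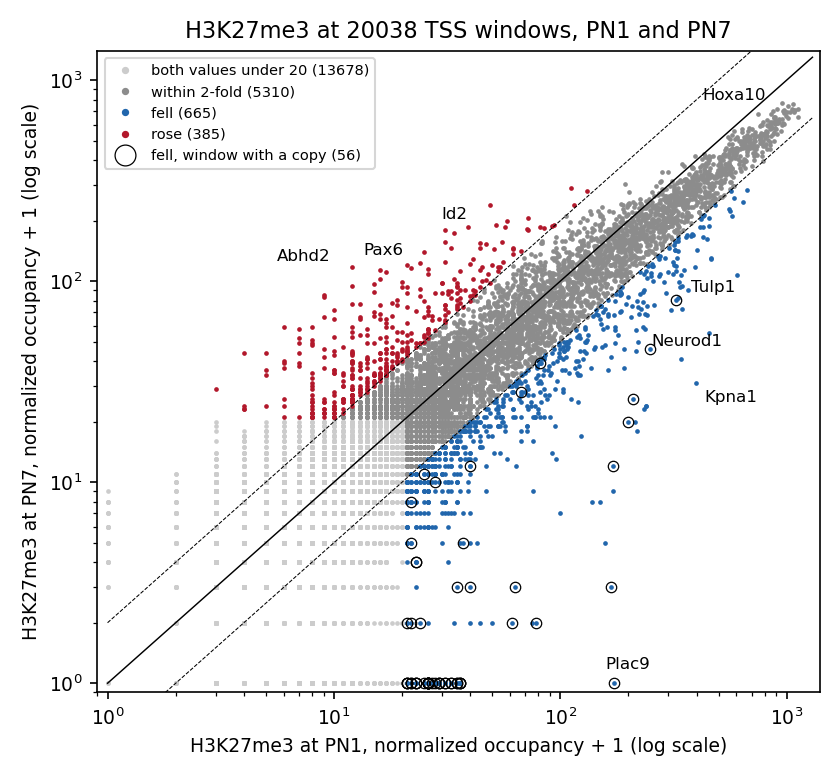
Each point is a gene symbol, placed by its H3K27me3 normalized occupancy plus 1 at PN1 (x axis) and PN7 (y axis), both on log scales. The solid line marks equal values and the dashed lines a 2-fold difference. Blue points fell (665) and red points rose (385) at least 2-fold with a value of 20 or more. Rings mark the 56 symbols that fell and whose TSS window has a near-identical copy in the genome. The cloud of strongly marked symbols lies under the solid line.

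The level was also taken from libraries other than PN1 and PN7. With the level taken from E17, which neither PN1 nor PN7 enters, the median log2 change ran from -0.51 at 200 and over through -0.36 at 100 to 200 and -0.24 at 50 to 100 to 0 below 10. With the level taken from PN15 it was -0.49 at 200 and over, -0.33 at 100 to 200, -0.14 at 50 to 100 and -0.03 at 20 to 50, but -0.16 at 10 to 20 and -0.17 below 10, so the order did not extend to the low levels. Rescaling both libraries to the same sum adds nearly the same amount to every level, so it bears on the sign and not on the order: the medians became 0.28, 0.16, 0.05 and -0.16 from 20 to 50 upwards, negative at 200 and over and positive at each lower level.

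**Figure D2:**
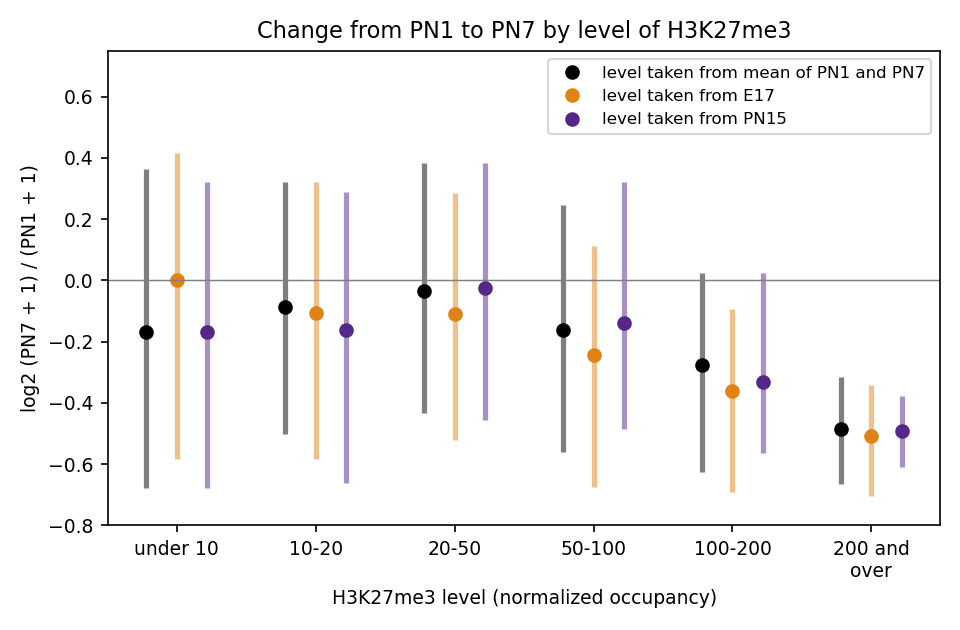
The x axis gives the H3K27me3 level, and the y axis the log2 change from PN1 to PN7 of normalized occupancy plus 1. Points are medians over symbols and bars run from the lower to the upper quartile, with the level taken from the mean of PN1 and PN7 (black), from E17 (orange) or from PN15 (purple). At 200 and over the medians are -0.49, -0.51 and -0.49 and the bars lie wholly below 0.

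The spread among symbols narrowed as the level rose. A standard deviation estimated from the quartiles was 0.77 on the log2 scale below an occupancy of 10, where counting error alone gave 0.65. At 200 and over it was 0.26, against 0.08 from counting error. Strongly marked promoters therefore differed from each other by more than counting error, although they moved within a narrow range. Of these 891 symbols, 56 fell and 2 rose at least 2-fold. The 2 that rose were Fezf2, a zinc finger regulator of neuronal fate (130 at PN1, 280 at PN7), and Nova2, a splicing regulator of neurons (111 and 290).

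At the other end, 7 symbols with a mean of at least 100 had the same value at both stages. The first 4 by alphabet were Kcna6 (125) and Kcnh1 (120), which encode potassium channel subunits, Apoa5 (107), an apolipoprotein of the liver, and Lta (123), a lymphocyte cytokine.

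The Hox genes, which pattern the body axis and are silent in the retina, carried the highest levels. All 39 were lower at PN7 and none fell 2-fold, with log2 changes between -0.77 and -0.23 and a median of -0.53. After rescaling to the same sum the median was -0.20, and 36 were lower and 3 higher. The 8 symbols with the highest mean all belonged to them. Hoxa10 had 800 at E17, 1125 (95% interval 1066 to 1186) at PN1, 721 (692 to 751) at PN7 and 334 at PN15. Hoxc9 had 1116 at PN1 and 654 at PN7, and Hoxb6 had 1079 and 690. By cluster, the median went from 1012 to 707 over 11 Hoxa genes, from 938.5 to 683 over 10 Hoxb genes, from 974 to 654 over 9 Hoxc genes and from 848 to 579 over 9 Hoxd genes. Neighbouring Hox windows overlap in part, so these genes are not independent measurements.

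Other families of developmental regulators also had negative medians, with a wider spread. Of the 19 Nkx and Gata genes, 18 were lower and none passed 2-fold, with a median log2 change of -0.49. Gata2, a regulator of blood and neuronal lineages, went from 875 to 499 and Nkx2-1, a forebrain and lung regulator, from 802 to 512. The 43 Forkhead genes had a median of -0.41, with 29 lower and 10 higher and log2 changes between -1.86 and 1.17. Of the 30 with a value of 20 or more at either stage, 1 fell 2-fold and none rose. The 1 that fell was Foxj1 (79 to 21), which drives formation of motile cilia. The median was -0.43 over 35 homeobox and paired box genes of the Dlx, Lhx, Irx, Pax and sine oculis families, with 28 lower and 7 higher, in which Pax3 went from 885 to 658 and Lhx5 from 853 to 612. Of the 33 genes of that list with a value of 20 or more, Pax6 was the only one past 2-fold, and it went up. Over all symbols with such a value 10.5% fell and 6.05% rose. After rescaling to the same sum the medians were -0.16 for the Nkx and Gata genes, with 15 lower and 4 higher, -0.087 for the Forkhead genes, with 25 and 18, and -0.10 for the homeobox and paired box genes, with 22 and 13.

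Of the 6360 symbols with a value of 20 or more at either stage, 665 fell at least 2-fold (10.5%) and 385 rose at least 2-fold (6.05%). The Poisson intervals of the pair of values did not overlap for 2578 of the 6360 (40.5%). They did not overlap for 647 of those that fell and for 377 of those that rose. The choice by fold at 20 or more makes this likely, so it gives the calls no added weight. The 651 symbols that fell and had a place on mm9 lay at 606 separate loci and the 380 that rose at 370, counting starts within 5 kb as 1 locus. The balance between both directions followed the scale of the libraries: falls made up 63.3% of the calls with the deposited values, 49.8% after rescaling to the same median and 35.9% after rescaling to the same sum. As the choice by fold implies, those that rose had a median of 15 at PN1 and 43 at PN7 and those that fell 43 and 16.

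Several single genes with roles in photoreceptors and neurons fell. Neurod1, a bHLH factor required for photoreceptor survival, had 186 at E17, 230 (198 to 266) at PN1, 58 (50 to 67) at PN7 and 24 at PN15. Neurod2, a related neuronal factor, went from 643 at PN1 to 247 at PN7. Tulp1, which photoreceptors need for protein transport to the outer segment, had 273, 340, 106 and 49 at the 4 stages. Otx2, the homeobox factor that specifies photoreceptors, had 212, 289, 130 and 46. Gucy2e, the guanylate cyclase of photoreceptors, had 72, 108, 34 and 17. In each of these photoreceptor genes H3K27me3 was highest at PN1 and lowest at PN15. The medians of all 891 symbols at 200 and over had the same order (327, 390, 277 and 139), so it is not particular to these genes.

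Of the 43 photoreceptor genes measured, 23 were lower and 17 higher at PN7. A value of 20 or more was found for 24, with a median log2 change of -0.0037 over these. Tulp1, Otx2 and Gucy2e fell, a share near the 10.5% of all symbols, Otx2 not past 2-fold after either rescaling, and Pde6c, the cone phosphodiesterase, rose (13 to 40). Slc24a1, the rod exchanger, had 180 and 157, and Guca1a, an activator of guanylate cyclase, had 158 and 144. The median log2 change of the list was -0.13, near that of all symbols, and turned positive after rescaling to the same sum or median. The photoreceptor regulator Crx, chosen after its values were seen, had little of the mark, with 6 at PN1 and 4 at PN7.

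Potassium channel subunits moved both ways. Kcnc1, a Kv3 potassium channel subunit, had 314, 402, 142 and 67 over the 4 stages. Kcnk4, a two-pore potassium channel, went from 452 to 204. Of the 89 potassium channel subunits, 72 had a value of 20 or more, 7 fell and 2 rose, Kcna3 (14 to 48) and Kcnc2 (13 to 36), another Kv3 subunit, a share of falls no higher than the 10.5% of all symbols. Of 99 neurotransmitter receptor subunits, 72 had a value of 20 or more and 3 fell, a smaller share than the 10.5% of all symbols, namely Chrm1 (36 to 17), Chrnd (61 to 27) and the kainate receptor gene Grik3 (431 to 213), and Grik4 rose (16 to 37). After rescaling to the same sum none of these 3 falls passed 2-fold, nor did 4 of the 7 potassium channel falls, Kcnk4 among them. Celsr3, a cadherin of axon tract formation, had 293, 331, 81 and 20 at the 4 stages, and the neuronal transcription regulator Klf9 had 41, 75, 8 and 8. Celsr3 and Klf9 were chosen after their values were seen.

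A few Polycomb components fell. Of the 26 genes in the list of Polycomb subunits and H3K27 demethylases, 6 had a value of 20 or more, 3 fell and none rose, and 6 members are too few to set against the 10.5% and 6.05% of all symbols. Among those that fell, Cbx8 went from 321 to 142 and Bmi1 from 151 to 60, and both belong to Polycomb repressive complex 1. None of the 3 falls passed 2-fold after rescaling to the same sum. Cbx7, of the same complex, had 194 and 114. The subunits of complex 2 had little of the mark at either stage, with 3 and 5 at Ezh2, 3 and 6 at Eed and 7 and 4 at Suz12, which were chosen after their values were seen.

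Of 7 CDK inhibitors, which stop the cell cycle, 5 had a value of 20 or more and 2 fell, again too few to compare with the 10.5% of all symbols. Cdkn1c (p57) had 57, 102, 40 and 27 from E17 to PN15, and Cdkn2c (p18) had 61, 61, 20 and 5. Cdkn2a, the locus of p16 and p19, had 527 at PN1 and 429 at PN7, and Cdkn1a (p21) had 57 and 60. Of 38 cell cycle and DNA replication genes only 6 had a value of 20 or more, and 1 fell. This was Cdk6, which went from 66 to 17 and stood at 55 at PN15. Ccnd1 had 134 and 222, and Ccnd2 had 603 and 519.

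The steepest falls were of another kind. Among symbols with a value of 50 or more, the 12 most negative log2 changes belonged to loci whose PN7 value lay between 0 and 11, after 60 to 171 at PN1 and 49 to 156 at E17. All 12 stood higher again at PN15, at 23 to 133. Plac9, a small secreted protein gene, had 128 at E17, 171 (149 to 196) at PN1, 0 (0 to 1.15) at PN7 and 66 at PN15. The PN1 value was 182-fold above the limit of 3 reads in the PN7 library, a ratio that leaves out counting error. Its TSS window has a near-identical copy in the genome. Nid1, which encodes a basement membrane protein, had 134, 166, 2 and 74. The others were 4930467E23Rik, Dux, H2-Q8, Gm15319, Dynlt1a, H2-T23, H2-Q7, Il31ra, Sspn and Oxct2b.

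**Figure D3:**
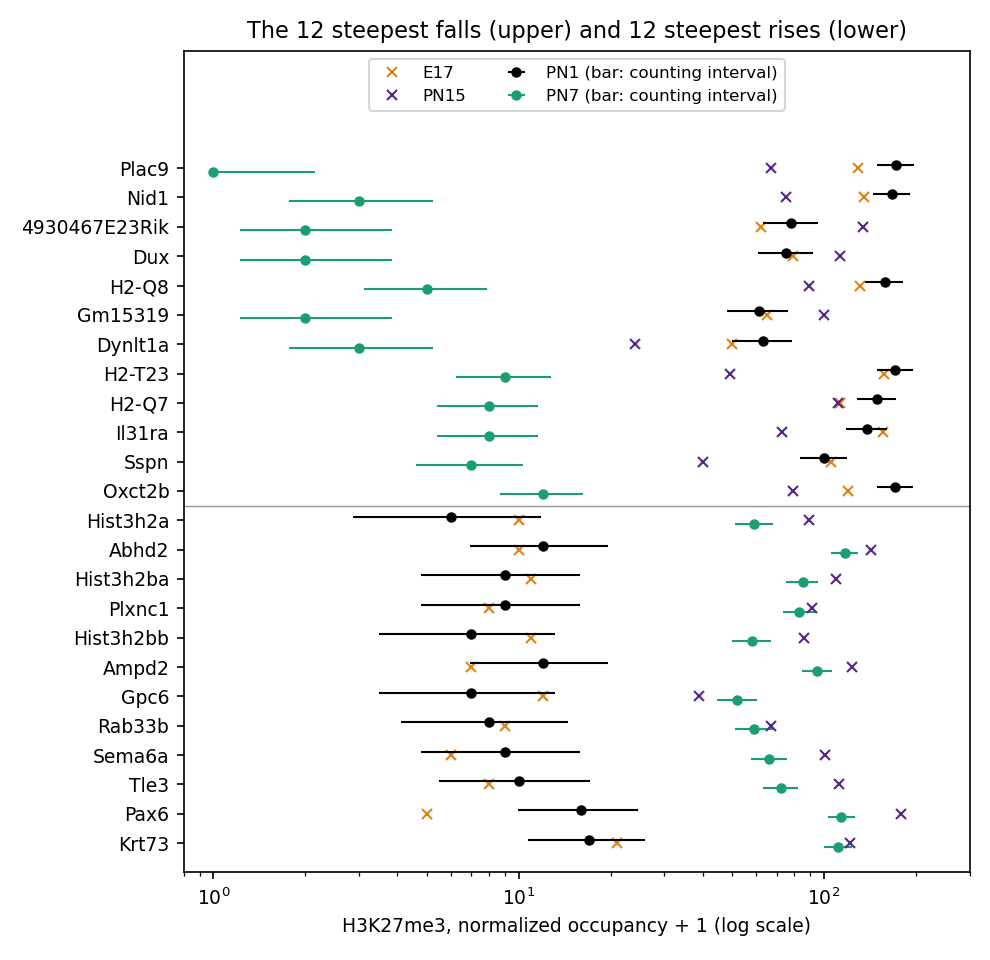
The x axis gives H3K27me3 normalized occupancy plus 1 on a log scale, and each line is a gene. The upper 12 genes had the steepest falls and the lower 12 the steepest rises among symbols with a value of 50 or more. Dots with bars are PN1 (black) and PN7 (green) with exact Poisson 95% intervals, and crosses are E17 (orange) and PN15 (purple). In the upper 12 genes only PN7 is low, whereas in the lower 12 E17 and PN1 are low and PN7 and PN15 are high.

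The same loci were nearly empty in the H3K4me2 library of PN7: 10 of the 12 had 3 or less there, against a range of 1 to 47 at E17. For 6 of the 12 the window of 5 kb around the TSS has a copy of at least 98% identity elsewhere in mm9 over at least 25% of its length. Such windows make up 2.27% of the 19491 symbols placed on mm9. Of the 68 with a value of 20 or more, 56 fell, 11 stayed within 2-fold and 1 rose. In all, 481 symbols were at 0 at PN7 and 28 at PN1. Of the 481, 454 were also at 0 for H3K4me2 at PN7, and of the 440 with a window 291 (66.1%) had a copied one. H3K4me2 at PN7 was at 0 for 4022 symbols, against 84 at E17, 86 at PN1 and 557 at PN15. The part of read placement in these falls was not tested. The genes of the mouse major histocompatibility complex (H2), which present antigens, held many such loci: of 37 H2 symbols, a group picked after the falls were seen, 31 had a value of 20 or more, 15 fell (10.5% of all such symbols fell) and none rose, and 13 of the 15 were higher again at PN15. Kpna1, an importin, had 430, 397, 30 and 192 over the 4 stages and Flt4, a lymphatic receptor, 399, 454, 54 and 175, with no copied window. Without copied or missing windows 595 symbols fell and 379 rose.

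Of the 385 symbols that rose, 260 (67.5%) had less than 20 at PN1, and the highest start was 130. Among symbols with a value of 50 or more, the 12 most positive changes started from 5 to 16 at PN1 and reached 51 to 116 at PN7. E17 lay between 4 and 20, and PN15 between 38 and 178, above PN7 in 11 of the 12. None of the 11 with a place on mm9 had a copied window. Pax6, the regulator that keeps retinal progenitors multipotent and later marks amacrine and ganglion cells, had 4 at E17, 15 (8.93 to 23.6) at PN1, 113 (102 to 125) at PN7 and 178 at PN15. Abhd2, a hydrolase, had 9, 11 (5.93 to 18.7), 116 (104 to 128) and 141. The neighbouring histone genes Hist3h2a, Hist3h2ba and Hist3h2bb went from 5 to 58, from 8 to 84 and from 6 to 57. The starts of the first and second lie more than 5 kb apart, beyond the limit used for 1 locus. Hist3h2bb was not placed on mm9, so these genes may not count as 3 independent rises.

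Tle3, a Groucho corepressor, went from 9 to 71. Plxnc1, a semaphorin receptor, rose from 8 to 82 and Sema6a, a transmembrane semaphorin, from 8 to 65. Ampd2, an AMP deaminase, went from 11 to 94, Gpc6, a glypican, from 6 to 51, Rab33b, a Golgi GTPase, from 7 to 58, and Krt73, a keratin of the hair follicle, from 16 to 110. H3K4me2 at these 12 loci lay between 22 and 151 at E17 and between 5 and 156 at PN7.

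Retinal progenitor regulators had the most positive median of the 30 gene lists, 0.37 on the log2 scale, and 15 of the 22 were higher at PN7. Pax6, Sfrp2 (18 to 80), a secreted Wnt modulator, and Fgf15 (25 to 54), a progenitor growth factor, rose at least 2-fold, and none fell. Sox2, which maintains the progenitor state, had 26, 75, 112 and 182 at the 4 stages, and Lhx2 had 28, 62, 85 and 117, both within 2-fold between PN1 and PN7. Sox2 and Lhx2 were chosen after their values were seen. Nr2e1 (Tlx) had 169 and 162. Both rescalings raise all values, so they could not turn this sign. Of the 22 genes, 18 had a value of 20 or more, and 6.05% of all such symbols rose.

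Of the 16 proneural bHLH factors, 12 were lower and 4 higher at PN7, with a median log2 change of -0.35 that became -0.027 after rescaling to the same sum. Of the 15 with a value of 20 or more, Neurod1 and Neurod2 fell and 1 member rose, where 10.5% of all such symbols fell and 6.05% rose. Olig3 (683 to 466), Neurog3 (579 to 452), Neurog1 (587 to 433) and Bhlhe23 (607 to 404) stayed within 2-fold. Of 20 Mueller glia genes, 14 had a value of 20 or more, 1 fell and 2 rose, too few to set against the same shares. Id2, an inhibitor of bHLH factors, rose from 33 to 172, and Rlbp1, the retinaldehyde binding protein of Mueller glia and pigment epithelium, rose from 11 to 55 and reached 136 at PN15. Kcnj10, the glial inward rectifier, fell from 37 to 17, though not past 2-fold after either rescaling. Sox9, a glial and progenitor factor, had 77 and 110.

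Genes of the inner retinal neurons had much of the mark. The median at PN1 was 254 over 25 amacrine genes, 420 over 27 ganglion cell genes, 199.5 over 8 horizontal cell genes and 104.5 over 20 bipolar genes, and the median log2 changes were -0.33, -0.22, -0.47 and -0.36. Of their members 7 amacrine, 10 ganglion cell, 1 horizontal cell and 6 bipolar genes were higher at PN7. After rescaling to the same sum the medians were -0.0047, 0.11, -0.14 and -0.035, so little of the fall was left in the amacrine and bipolar lists and the ganglion cell list changed sign. Slc18a3, the acetylcholine transporter of starburst cells, went from 652 to 398, Gad1, which makes GABA, from 570 to 450, Lhx1, of horizontal cells, from 797 to 474, Isl1, of ganglion and bipolar cells, from 439 to 372, and Grm6, the glutamate receptor of ON bipolar cells, from 457 to 293. A value of 20 or more was found for 24 amacrine, 23 ganglion cell, 7 horizontal cell and 17 bipolar genes. Of these 1 fell, Gnao1 (43 to 16), the G protein of ON bipolar cells, fewer than the 10.5% of all symbols, and 2 rose, fewer than the 6.05%, namely Vip (15 to 40), an amacrine neuropeptide, and Slc17a8 (15 to 33), the glutamate transporter of an amacrine type.

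**Figure D4:**
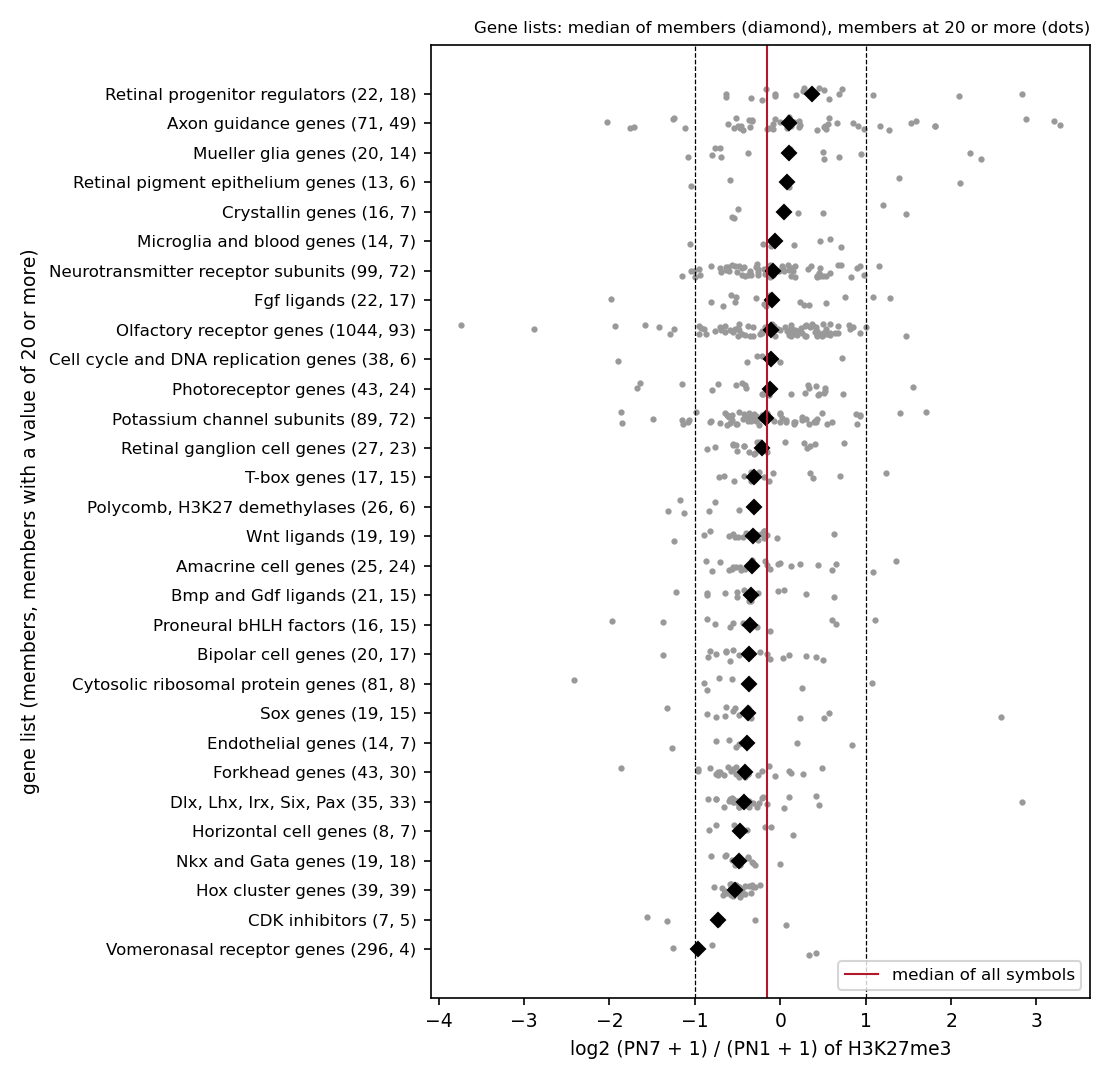
The x axis gives the log2 change of H3K27me3 normalized occupancy plus 1 from PN1 to PN7. Each line is a gene list with its number of members and of members with a value of 20 or more. Diamonds are medians over all members, dots are members with a value of 20 or more, dashed lines mark 2-fold and the red line is the median of all symbols (-0.16). Progenitor regulators lie to the right (0.37) and the Hox genes form a narrow group at -0.53.

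Axon guidance genes moved in both directions. Of 71, 49 had a value of 20 or more, 9 rose and 6 fell, where 6.05% of all such symbols rose and 10.5% fell, and the median log2 change was 0.11. The ephrins Efnb2 (2 to 28), Efna5 (13 to 48) and Efnb3 (12 to 38), the Eph receptors Epha4 (49 to 120) and Epha7 (20 to 46), Robo1 (29 to 86), a Slit receptor, Ntn4 (23 to 83), a netrin, Plxnc1 and Sema6a rose. Epha8 (236 to 57), Ntng2 (333 to 98), Robo3 (357 to 164), Sema6b (70 to 29), Sema6c (22 to 6) and Sema7a (92 to 38) fell, of which Robo3, Sema6b and Sema7a no longer passed 2-fold after rescaling to the same sum. Those that rose started at 49 or less at PN1, and of those that fell only Sema6c did. Slit3, with 393 and 416, and Nrp2, with 236 and 215, hardly moved.

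Signalling ligands, which cells secrete to pattern their neighbours, are given by family, and differences between families were not tested. The median was -0.32 over 19 Wnt ligands, with Wnt10a past 2-fold (670 to 282) and Wnt1 at 775 and 438, and it became 0.01 after rescaling to the same sum. It was -0.10 over 22 Fgf ligands, of which 12 were lower and 10 higher, positive after rescaling to the same sum or median, with Fgf11 falling (70 to 17) and Fgf14 (8 to 21) and Fgf15 rising. It was -0.34 over 21 Bmp and Gdf ligands, of which 16 were lower and 4 higher, and -0.016 after rescaling to the same sum, and Gdf15 fell (20 to 8). The 19 Sox genes had a median of -0.38, which became -0.057 after that rescaling, with Sox10 falling (327 to 130) and Sox11 rising (3 to 23), and the 17 T-box genes -0.30, with Tbx2 rising (30 to 72), although the T-box median was 0.02 after rescaling to the same sum. The falls of Wnt10a, Gdf15 and Sox10 no longer passed 2-fold after that rescaling. With a value of 20 or more there were 19 Wnt, 17 Fgf, 15 Bmp and Gdf, 15 Sox and 15 T-box genes, and with at most 1 fall and 2 rises each no list can be set apart from the 10.5% and 6.05% of all symbols.

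The remaining lists held genes of other tissues, of other cells of the eye and of the ribosome. The 1044 olfactory receptor genes had a median log2 change of -0.11, which turned to 0.20 and 0.034 after rescaling to the same sum and median, and of the 93 with a value of 20 or more 7 fell and 2 rose, both smaller shares than the 10.5% and 6.05% of all symbols. The 296 vomeronasal receptor genes had a median of 6 at PN1 and 2 at PN7, a median log2 change of -0.96, with 220 lower and 49 higher. Both marks were lowest at PN7: the medians from E17 to PN15 were 7, 6, 2 and 8 for H3K27me3 and 2, 4, 0 and 2 for H3K4me2. The part of read placement was not tested here either. Of the 4 with a value of 20 or more 1 fell, Vmn1r90, whose window has a copy. The medians of occupancy of this family lie under 10, where counting error nearly fills the spread of single genes. The median log2 change was -0.49 with a pseudocount of 5 and -0.67 after rescaling to the same sum. It was 0 with the olfactory receptor median subtracted, which decides nothing, because both medians of the family lie below the 7 and 6 subtracted. Olfr94, the most marked olfactory receptor gene, had 207 and 204. Of 81 cytosolic ribosomal protein genes 1 fell, Rps29 (31 to 5), and 1 rose, Rps4x (17 to 37). In the retinal pigment epithelium list Ttr (15 to 68) and Slc45a2 (7 to 20) rose and Dct (183 to 88) fell. Cryba4 (13 to 38) and Crybb2 (9 to 22) rose among 16 crystallins, Esam (454 to 188) fell among 14 endothelial genes and Hba-a1 (80 to 38) among 14 microglia and blood genes. The numbers with a value of 20 or more were 8 ribosomal, 6 pigment epithelium, 7 crystallin, 7 endothelial and 7 microglia and blood genes, too few to set against the 10.5% and 6.05% of all symbols. After rescaling to the same sum the falls of Dct, Esam, Hba-a1 and Vmn1r90 no longer passed 2-fold. Some members had much of the mark, such as the endothelial regulator Sox17 (683 and 490), the receptor Flt1 (520 and 362) and the crystallin Cryba2 (548 and 375).

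The libraries of E17 and PN15 have no part in the PN1 to PN7 values and were compared with them. Of the 6360 symbols, 28.1% fell and 9.36% rose at least 2-fold from E17 to PN15 on the deposited scale. Among the 385 that rose from PN1 to PN7, 269 (69.9%) also rose from E17 to PN15, and 1 fell. Among the 665 that fell, 384 (57.7%) fell from E17 to PN15, and 17 rose. Without copied or missing windows these shares were 69.4% of 379 and 62.5% of 595, whereas of the 56 with a copied window 6 (10.7%) fell. Across the 6173 symbols without copied windows, Pearson's r between both changes was 0.65 and Spearman's coefficient 0.63. Symbols share libraries and neighbours, so this is a description across genes.

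The step from PN1 to PN7 stood between steps of different size. At 200 and over, the median log2 change was 0.29 from E17 to PN1, -0.49 from PN1 to PN7 and -1.02 from PN7 to PN15, and the median occupancy was 327, 390, 277 and 139. These steps share libraries and are given side by side on the deposited scale. The values of all symbols summed to 708402, 816198, 650850 and 480401 from E17 to PN15. The steps from E17 to PN1 and from PN7 to PN15 were not rescaled. Of the 891 symbols at this level, 881 (98.9%) had less at PN15 than at E17, and of the 56 that fell 2-fold by PN7, 53 also fell 2-fold from E17 to PN15, as did 643 of all 891 (72.2%).

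H3K4me2, measured in other libraries, differed between symbols in which H3K27me3 fell and rose. Over symbols without copied windows, its median went from 43 at E17 through 30 at PN1 and 38 at PN7 to 63 at PN15 where H3K27me3 fell, and from 56 through 36 and 40 to 40 where it rose. From E17 to PN15 H3K4me2 was higher for 68.9% of the 595 that fell and 33.2% of the 379 that rose, against 43.8% of all 6173. At the most strongly marked symbols, with H3K27me3 at 200 and over, it was 32, 21, 24 and 21. Single genes differed within the groups. Of genes that fell, H3K4me2 at Tulp1 was 22, 20, 52 and 81 and at Otx2 73, 58, 33 and 140, but at Neurod2 31, 16, 41 and 11 and at Sox10 13, 14, 7 and 5. Of genes that rose, it was 137, 97, 114 and 44 at Pax6 and 37, 26, 9 and 6 at Rlbp1, but 83, 60, 122 and 93 at Gpc6 and 46, 22, 20 and 50 at Nova2. Across the 6173 symbols Pearson's r of the H3K27me3 change from PN1 to PN7 with the H3K4me2 change from E17 to PN15 was -0.15, as was Spearman's coefficient. With the H3K4me2 change from PN1 to PN7 itself Pearson's r was -0.04 and Spearman's coefficient -0.11, and over all 6360 symbols they were 0.08 and -0.08, so the relation was weak and, over all symbols, differed in sign between the measures.

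**Figure D5:**
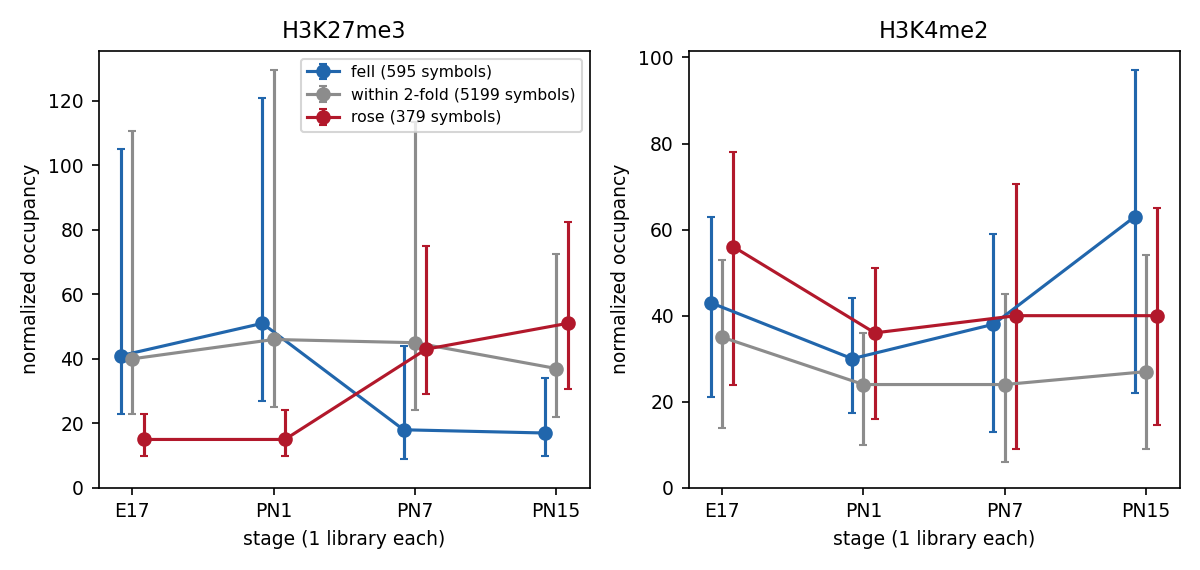
Median normalized occupancy of H3K27me3 (left) and H3K4me2 (right) at E17, PN1, PN7 and PN15, 1 library each, for symbols without copied windows that fell (blue, 595), stayed within 2-fold (grey, 5199) or rose (red, 379) from PN1 to PN7. Bars run from the lower to the upper quartile over symbols. H3K27me3 of the red group is 15 at both early stages and 43 and 51 at the later ones, and H3K4me2 of the blue group reaches 63 at PN15.

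The promoters were also read for CpG content, as the observed over expected CpG ratio within 1000 bases around the start in mm9. The starts were those of GENCODE, which may miss the RefSeq start that was measured, so the shares hold for the GENCODE starts only. The share of symbols with a ratio of 0.6 or more was 61.8% at a level of 200 and over, 52.4% at 100 to 200, 51.2% at 50 to 100, 42.8% at 20 to 50, 44.2% at 10 to 20 and 51.9% below 10, so it did not rise steadily with the level. It was 57.4% of the symbols that rose, 49.5% of those that fell and 47.5% of those within 2-fold. The median ratio was 0.68, 0.60 and 0.58 in the same order. The promoters printed above had ratios of 0.57 for Hoxa10, 0.68 for Neurod1, 0.57 for Pax6 and 0.23 for Olfr63.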

How the data were processed

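H3K27me3 and H3K4me2 were measured by ChIP-Seq with micrococcal nuclease in retinas at 4 stages, 1 library each. Per the labels and the methods of the study, alignment to mm9 was done by the authors with Bowtie 0.12.4, uniquely placed reads were kept, fragments of 190 bp were assumed and midpoints within 2.5 kb of a RefSeq TSS were added up. The deposited table gives these sums as scores: the authors divided them by the mapped reads of a library and rounded the result to whole numbers, so no count model was used. A letter b in the name of the PN7 H3K27me3 column is not explained in the sources used here. The antibody catalogue numbers differ between the labels and the methods.

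The table held 25152 entries, of which 25 symbols turned into dates were read back. Of several entries for a symbol, that with the highest total was used. Changes are log2 of PN7 plus 1 over PN1 plus 1, and calls needed a larger value of at least 20 and a 2-fold difference. The worth of 1 read was fitted to the spacing of the values, and the steps were tested on simulated data. Starts were taken from GENCODE vM1 on mm9 (19491 symbols), and copies were searched with minimap2 2.31. Loci, copies and CpG values may therefore not belong to the RefSeq start that was measured. Python 3.11.15, pandas 2.3.3 and scipy 1.17.1 were used.

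Named genes were the 12 most negative and 12 most positive changes at a larger value of 50 or more, the 8 with the highest mean, 4 with a mean of at least 100 and a change nearest 0, and the 4 with the highest mean in each of 30 gene lists. Most called members of short lists were also named, and a few are not reported here. The members and lists were chosen with earlier results of these data known. Other pseudocounts, scalings, minimums, folds, levels and choices of entry were tried.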

Additional observations from a re-analysis of the deposited data

How the results depend on the processing

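No paired analysis was possible because each mark and stage had 1 library, and no replicate could be left out. With both libraries rescaled to the same sum, 378 symbols fell and 675 rose, and the median log2 changes were 0.12 below a level of 10, 0.22 at 10 to 20, 0.28 at 20 to 50, 0.16 at 50 to 100, 0.049 at 100 to 200 and -0.16 at 200 and over, a shift of 0.30 over all symbols. Rescaled to the same median, with a shift of 0.14, they were -0.036, 0.055, 0.11, -0.012, -0.12 and -0.33. The medians of 10 gene lists changed sign under the first and of 6 under the second. With the olfactory receptor median subtracted, 937 symbols fell, 660 rose and the medians were 0 below 10 and at 10 to 20. Below 10 this says little, because the medians there, 7 at PN1 and 5 at PN7, are no higher than the 7 and 6 subtracted. With no minimum, 2710 fell and 1402 rose. With a minimum of 50 the counts were 317 and 161, and at 1.5-fold they were 1676 and 829. A pseudocount of 5 gave -0.12 below 10. With the level from E17 the medians were 0, -0.11, -0.11, -0.24, -0.36 and -0.51 from the lowest level up. With the level from PN15 they moved to -0.16 at 10 to 20 and -0.33 at 100 to 200. Leaving out copied or missing windows, chosen after seeing the data, gave -0.14 below 10. No called named gene changed direction under the alternatives run. Depth limits the values below 10, where counting error (0.65 on the log2 scale) was near the whole spread (0.77).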

Other observations

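Some loci outside the gene lists are given here and were chosen after their values were seen. All but Atoh7 passed 2-fold from PN1 to PN7. Nfic, a nuclear factor I gene, went through 92, 95, 12 and 5 for H3K27me3 from E17 to PN15, while its H3K4me2 was 35, 21, 42 and 92. Hr, the hairless corepressor, went through 188, 190, 45 and 26 for H3K27me3 and 39, 38, 61 and 165 for H3K4me2. Atoh7, which ganglion cells need, stood at 97, 120, 66 and 24 for H3K27me3 and at 63, 42, 41 and 33 for H3K4me2, so both marks ended low. Fezf2, which gained H3K27me3 by PN7, stood at 180 at PN15, and its H3K4me2 was 119, 79, 70 and 29.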
